A study of Mus musculus with 6 samples.

Results

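The calcium/calmodulin-dependent protein kinase II (CaMKII) genes and the scaffold genes of the excitatory postsynapse were followed in cultured mouse interneurons. They are 10 of the 55335 genes in the deposited table, taken by symbol: Camk2a, Camk2b, Camk2d, Camk2g, Dlg2, Dlg4, Shank1, Shank2, Shank3 and Homer1. All 10 matched 1 row each and all 10 were among the 12792 genes tested, which had a mean of at least 1 FPKM (fragments scaled by transcript length and sequencing depth) in a group. The cells were primary GABAergic interneurons from the brains of wild-type C57BL/6 embryos at embryonic day 14.5, which 1 label field calls neural progenitor cells. For 12 hours they were given an adeno-associated virus, which in 3 samples (AAV-shbrpf1) held a short hairpin against Brpf1, a scaffold of histone acetyltransferase complexes, and in 3 samples (AAV-scramble) a scrambled hairpin. Both groups thus carried virus, while the promoter driving the hairpin and the time to harvest are not stated in the labels. As no label ties a sample to its own culture or animal, each p-value refers only to the spread among these libraries, which may be technical.

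CaMKII is a multisubunit kinase that calcium-bound calmodulin switches on and that stays active after it phosphorylates its own regulatory segment. At excitatory synapses, which interneurons receive on their dendrites, it binds NMDA receptors and phosphorylates AMPA receptors and scaffolds. Dlg4 (PSD-95) and Dlg2 (PSD-93) are membrane-associated guanylate kinases whose PDZ domains hold receptors and channels in the postsynaptic density. Shank proteins lie beneath them as master scaffolds, and Homer1 links Shank proteins to group I metabotropic glutamate receptors and inositol trisphosphate receptors. In cortex, Camk2a is best known as a gene of glutamatergic principal neurons, while Camk2b appears earlier in development.

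The 4 CaMKII genes encode closely related kinases, and how far their coding sequences have diverged bears on how reads are told apart. The stretch round the autophosphorylated threonine is shown as an example. It does not rank the pairs of genes as the whole coding sequence does. These stretches of 57 bases are given 5′ to 3′ from GENCODE M21 transcripts (GRCm38), with the threonine codon in capitals, for Camk2b on chromosome 11, Camk2d on chromosome 3 and Camk2g on chromosome 14.
Camk2b: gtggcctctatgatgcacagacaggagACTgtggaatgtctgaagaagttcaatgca
Camk2d: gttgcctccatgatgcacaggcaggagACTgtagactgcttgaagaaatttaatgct
Camk2g: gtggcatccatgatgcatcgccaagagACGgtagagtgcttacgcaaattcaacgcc
Within the stretch, Camk2b and Camk2d differed at 10 bases, Camk2b and Camk2g at 18, and Camk2d and Camk2g at 15. Across aligned coding sequence these pairs were 78.1%, 78.5% and 76.9% identical, and their longest identical runs were 23, 29 and 23 bases. The longest identical run between any pair of the 4 genes was 32 bases, between Camk2a and Camk2b.

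Promoter windows ran from 250 bases before to 50 after an annotated start in RefSeq (GRCm38.p6). They were examined for 6 of the genes: Camk2b, Camk2d, Dlg2, Dlg4, Homer1 and Shank3, with 11 windows in all. A gene left out here may still have a window in RefSeq. The windows of Camk2b (minus strand, chr11:6065699-6065998) and Camk2d (plus strand, chr3:126596701-126597000) are shown 5′ to 3′ because these paralogs had opposite orders across the libraries. Whether the windows bear on those orders was not tested. Capitals mark the GC box GGGCGG on either strand, where matches may overlap.
Camk2b: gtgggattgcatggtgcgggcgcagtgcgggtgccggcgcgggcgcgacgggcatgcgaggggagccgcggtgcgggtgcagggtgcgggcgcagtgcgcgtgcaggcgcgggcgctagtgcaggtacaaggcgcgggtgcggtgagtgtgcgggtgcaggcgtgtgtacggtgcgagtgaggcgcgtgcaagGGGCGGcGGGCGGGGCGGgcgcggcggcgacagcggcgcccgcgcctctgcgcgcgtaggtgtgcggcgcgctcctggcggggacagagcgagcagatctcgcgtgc
Camk2d: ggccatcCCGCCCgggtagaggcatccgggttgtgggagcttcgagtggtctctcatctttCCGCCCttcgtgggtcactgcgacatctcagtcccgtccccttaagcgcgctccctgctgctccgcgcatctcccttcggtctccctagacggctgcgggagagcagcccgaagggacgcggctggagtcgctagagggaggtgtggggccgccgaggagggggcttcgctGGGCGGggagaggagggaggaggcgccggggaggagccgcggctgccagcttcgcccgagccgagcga
The Camk2b window was 77.3% GC with 51 CpG dinucleotides and 3 GC boxes, and the Camk2d window was 70.3% GC with 31 CpG dinucleotides and 3 GC boxes. The Shank3 window held 40 CpG dinucleotides, against 1 to 3 in the 3 windows of Dlg2 and a median of 7 over all 32851 windows examined. A GC box was present in 4 of the 11 windows and in 35.7% of all windows. The CRE half-site TGACG, part of the sequence bound by CREB, was present in 2 of the 11 windows, with 3 matches in 1 window of Homer1, and in 20.8% of all windows.

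The libraries held an estimated 13.1 to 21.1 M fragments, and libraries with the same replicate number resembled each other. Brpf1, the targeted gene, stood at 3.13, 4.58 and 3.78 FPKM in AAV-shbrpf1 libraries 1, 2 and 3, and at 3.29, 5.45 and 4.84 FPKM in AAV-scramble libraries 1, 2 and 3. This difference did not pass (log2 difference -0.18 ± 0.26 SE, limma adjusted p = 1), so the groups are called by their viruses and a lowered Brpf1 level is not taken as given. Brpf1 was lower with AAV-shbrpf1 at each replicate number, a pattern that 11.3% of all genes tested showed. With the replicate number as a block in the fit it did not pass either. The share of ribosomal RNA features was 8.33% and 5.33% in the libraries numbered 2 and lay between 1.5% and 2.64% elsewhere, and 18780 to 26132 genes were above 0. The GABAergic markers were present as labelled: 10 of 10 passed the filter on low values, with a summed level of 695 to 930 FPKM with AAV-shbrpf1 and 660 to 1122 FPKM with AAV-scramble. The 8 glutamatergic markers summed to 0.665 to 0.968 FPKM with AAV-shbrpf1 and 0.424 to 1.35 FPKM with AAV-scramble, and 0 of the 8 passed that filter. Progenitor, astrocyte and oligodendrocyte lineage markers were present in every library, with 7 of 8, 8 of 8 and 7 of 7 past the filter and sums of 286 to 939, 205 to 332 and 140 to 274 FPKM with AAV-shbrpf1, against 317 to 892, 206 to 364 and 121 to 289 FPKM with AAV-scramble. The 6 microglial markers summed to 1.05 to 1.47 FPKM with AAV-shbrpf1 and 1.10 to 2.76 FPKM with AAV-scramble, with Cx3cr1 at 0 in each library, and the 6 muscle markers to at most 0.252 FPKM. Cells other than interneurons may therefore have added to each value, and fewer cells of a type and less RNA per cell cannot be told apart in such bulk samples.

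The genes covered a wide range of levels. Averaged over the 6 libraries they ran from Camk2b at 40.4 FPKM through Dlg4 at 25.6, Shank1 at 23.0, Camk2a at 22.5, Shank3 at 14.5, Camk2g at 12.1, Dlg2 at 7.46, Shank2 at 5.196 and Homer1 at 2.86 to Camk2d at 2.57 FPKM. Camk2b lay above Dlg4 in 6 of 6 libraries, and Dlg4 above Shank1 in 6 of 6. Neighbours whose order changed between libraries were Shank1 and Camk2a (3 of 6), Shank3 and Camk2g (4 of 6), Dlg2 and Shank2 (4 of 6), Shank2 and Homer1 (5 of 6), and Homer1 and Camk2d (4 of 6). FPKM is per transcript length, but it moves with the transcripts chosen, and each of these genes has between 6 and 28 annotated transcripts.

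**Figure D1:**
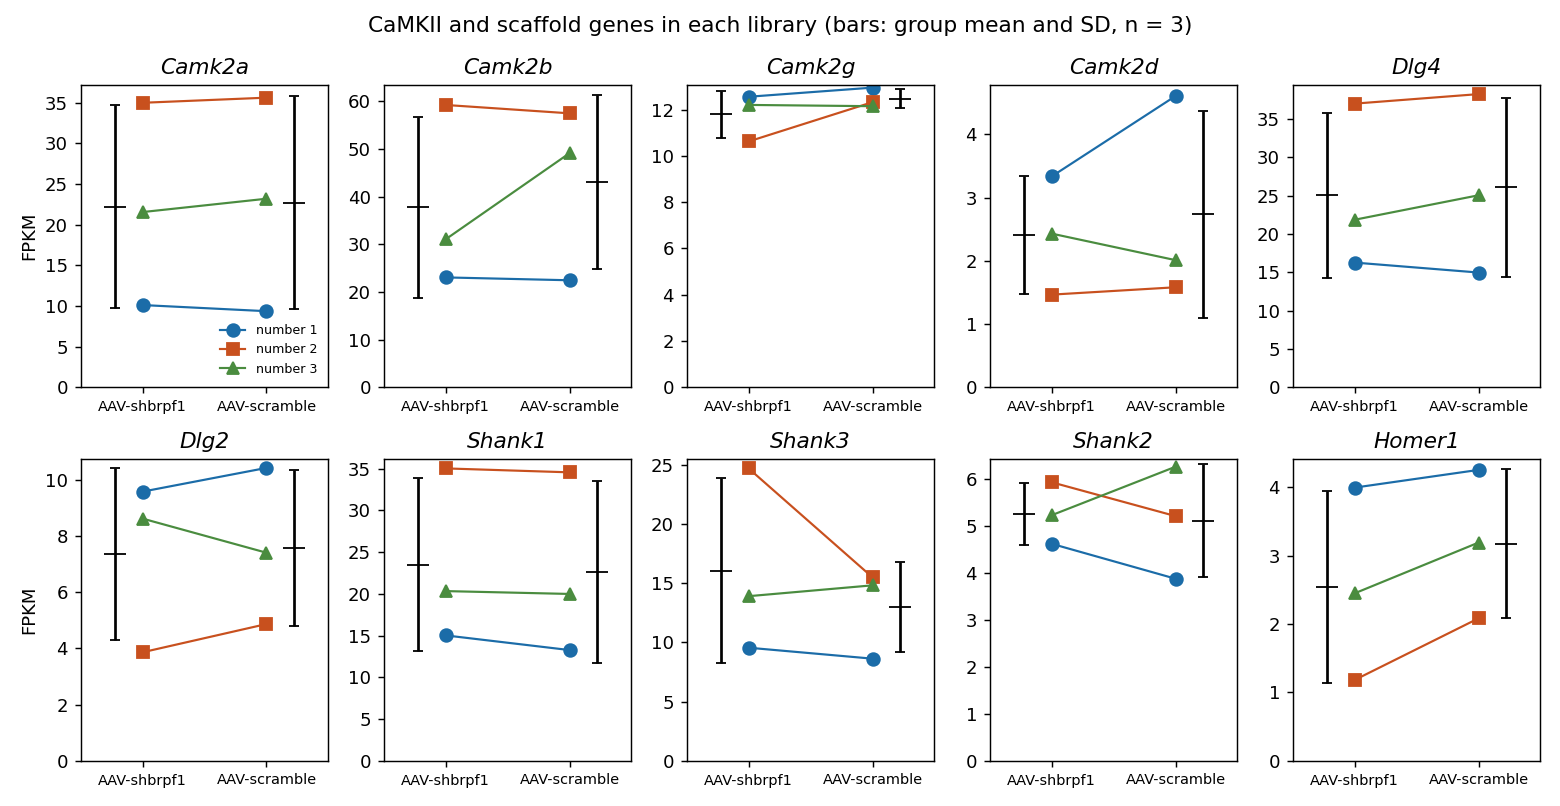
Levels in FPKM (y axes from 0) of the 10 genes in AAV-shbrpf1 (left) and AAV-scramble (right) libraries, with lines joining libraries of the same replicate number and black bars for the group mean and SD (n = 3). In most panels the lines lie far apart and run mostly flat. In Camk2a, for example, the libraries numbered 2 had 35.0 and 35.6 FPKM and those numbered 1 had 10.1 and 9.35 FPKM. The lines lie close together in Camk2g and cross in Shank2. Steep lines are those of number 3 in Camk2b (31.0 and 49.1 FPKM) and number 2 in Shank3 (24.7 and 15.5 FPKM).

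Between the viruses, 0 of the 10 genes passed, which means a limma p under 0.05 after Benjamini-Hochberg adjustment over all genes, with the replicate number as a block or without it. The background was the same, since 0% of the 12792 genes passed in either fit. At an unadjusted p under 0.05 there were likewise 0 of the 10 genes in either fit, against 0.18% of all genes without the block and 2.19% with it. The groups overlapped in 10 of the 10 genes, where 0.578% of all genes were wholly higher and 0.492% wholly lower with AAV-shbrpf1. The median log2 difference of the 10 genes was -0.05, beside -0.02 over all genes tested. A missing call does not show equal levels, so 95% intervals are given for each gene. Those below are mostly from the blocked fit and hold only if same-numbered libraries are pairs, which no label states. Without the block (the main fit) intervals were wider: -1.28 to 0.90 in Camk2b, -0.94 to 0.78 in Camk2d and -0.56 to 0.40 in Camk2g. In Dlg2 and Dlg4 they were -0.97 to 0.84 and -1.03 to 0.95. In Shank1, Shank2 and Shank3 they were -0.93 to 1.07, -0.52 to 0.62 and -0.68 to 1.13. The limma adjusted p was 1 for each of the 10 genes in both fits, when rounded.

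Camk2b encodes the beta subunit, which binds and bundles actin filaments. It stood at 23.0, 59.3 and 31.0 FPKM in AAV-shbrpf1 libraries 1, 2 and 3, against 22.4, 57.5 and 49.1 FPKM in AAV-scramble libraries 1, 2 and 3. The groups overlapped, the libraries numbered 2 were high and those numbered 1 low, and pair 3 held nearly all of the difference between the viruses. The means were 37.8 ± 19.03 FPKM with AAV-shbrpf1 and 43.0 ± 18.3 FPKM with AAV-scramble (SD, n = 3 each), and the log2(FPKM + 1) difference was -0.19 ± 0.16 (SE) with the block (95% interval -0.58 to 0.20). By pair, the ratio of AAV-shbrpf1 to AAV-scramble was 1.03, 1.03 and 0.632. Without pair 3 the blocked difference was 0.04.

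Camk2a encodes the alpha subunit, whose messenger RNA is carried into dendrites and translated there. It measured 10.1, 35.0 and 21.6 FPKM in AAV-shbrpf1 libraries 1, 2 and 3, against 9.35, 35.6 and 23.2 FPKM in AAV-scramble libraries 1, 2 and 3. Libraries of the same number were nearly alike and those of different numbers up to 3.81-fold apart. Its difference between the viruses was -0.01 ± 0.08 (SE) on the log2 scale with the block, with an interval of -0.21 to 0.20, the second narrowest of the 10 genes. Without the block the interval was -1.35 to 1.34. Camk2a is also a marker of glutamatergic neurons, whose defining vesicular glutamate transporters were near 0 here, with at most 0.0461 FPKM of Slc17a7 and 0.666 FPKM of Slc17a6.

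Camk2g and Camk2d encode the gamma and delta subunits, which are found in many tissues besides brain. Camk2g was the steadiest of the 10 genes, at 12.6, 10.6 and 12.2 FPKM in AAV-shbrpf1 libraries 1, 2 and 3, against 12.96, 12.3 and 12.2 FPKM in AAV-scramble libraries 1, 2 and 3. Its highest and lowest libraries differed 1.22-fold, and its blocked difference between the viruses was -0.08 ± 0.09 (SE) with an interval of -0.29 to 0.14. Camk2d stood at 3.33, 1.46 and 2.43 FPKM with AAV-shbrpf1, against 4.61, 1.58 and 2.01 FPKM with AAV-scramble. It was high where Camk2a and Camk2b were low, in the libraries numbered 1. Its blocked difference was -0.08 ± 0.14 (SE) with an interval of -0.44 to 0.27. If the longest transcript was expressed, 106 to 364 implied fragments gave each value a counting error of 5.2% to 9.7%. In the files, in GRCm38 coordinates, Camk2a lies on chromosome 18 from 60925618 to 60988152 (plus strand), Camk2b on chromosome 11 from 5969644 to 6066362 (minus strand), Camk2d on chromosome 3 from 126596302 to 126846326 (plus strand) and Camk2g on chromosome 14 from 20734875 to 20794088 (minus strand). GENCODE M21 places no other gene over Camk2b or Camk2g, and microRNA or predicted genes over Camk2a and Camk2d.

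As a family the CaMKII genes summed to 49.0, 106 and 67.2 FPKM in AAV-shbrpf1 libraries 1, 2 and 3, against 49.4, 107 and 86.5 FPKM in AAV-scramble libraries 1, 2 and 3. The sum was lower with AAV-shbrpf1 in 3 of 3 pairs, by under 1 FPKM in pairs 1 and 2, and the means of 74.2 ± 29.3 FPKM for AAV-shbrpf1 and 81.0 ± 29.2 FPKM for AAV-scramble (SD, n = 3 each) did not differ beyond the spread (exact two-sided permutation p = 0.7, adjusted over 9 family quantities p = 1). With 3 samples a group no such p can lie below 0.1, and an exact sign-flip test over pairs gave p = 0.25, the smallest that 3 pairs allow. Camk2b made up 47.0%, 55.7% and 46.2% of the summed CaMKII level with AAV-shbrpf1, against 45.5%, 53.7% and 56.8% with AAV-scramble. Camk2a made up 20.6%, 32.9% and 32.1% of it with AAV-shbrpf1, against 18.9%, 33.3% and 26.8% with AAV-scramble. In each library Camk2b was thus the leading CaMKII gene, at 1.44 to 2.28 times Camk2a with AAV-shbrpf1 and 1.61 to 2.40 times with AAV-scramble. Camk2g took 9.99% and 11.5% of the sum in the libraries numbered 2 but 25.6% and 26.3% in those numbered 1, while its own level hardly moved. No CaMKII share passed between the viruses (exact permutation p of 0.7 to 1 for the CaMKII shares, adjusted p = 1).

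**Figure D2:**
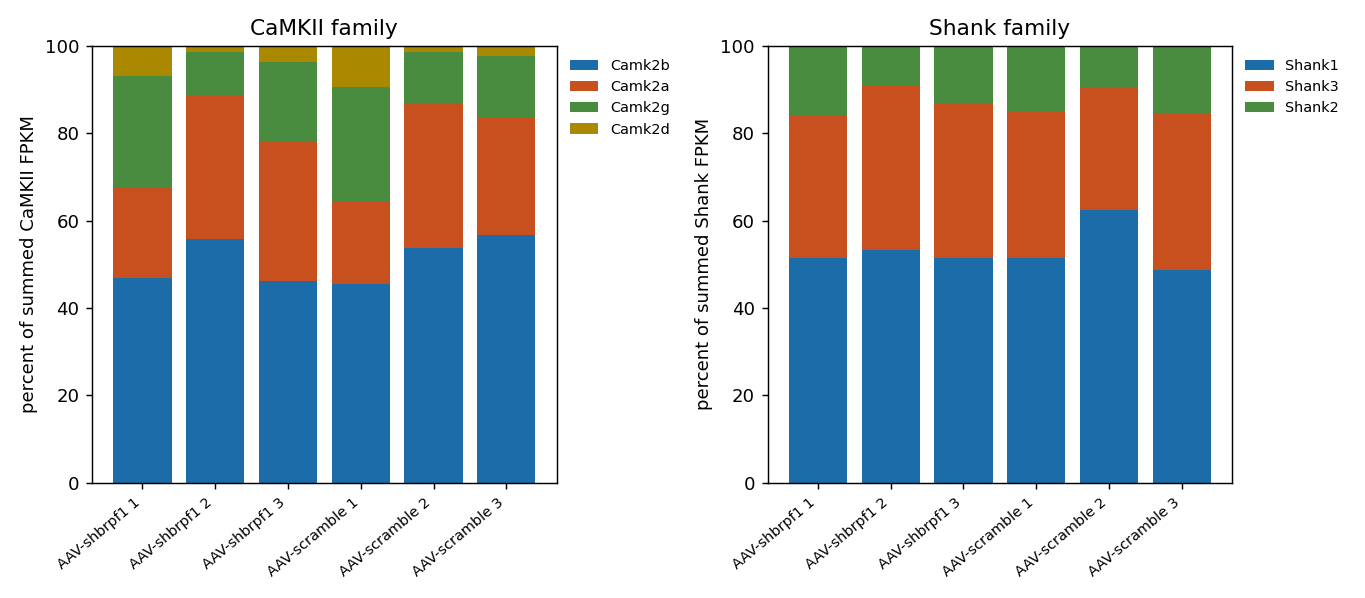
Share of each gene in the summed FPKM of its family (y axes, percent) in AAV-shbrpf1 libraries 1 to 3 and AAV-scramble libraries 1 to 3, with CaMKII genes on the left and Shank genes on the right. Camk2b is the largest CaMKII share in each library, between 45.5% and 56.8%, and Shank1 the largest Shank share, between 48.7% and 62.5%.

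Dlg4 encodes PSD-95, a core scaffold of the excitatory postsynaptic density. It stood at 16.3, 37.0 and 21.9 FPKM in AAV-shbrpf1 libraries 1, 2 and 3, against 15.0, 38.3 and 25.1 FPKM in AAV-scramble libraries 1, 2 and 3. The libraries numbered 2 were high and those numbered 1 low in both groups, and the blocked difference between the viruses was -0.04 ± 0.09 (SE) with an interval of -0.27 to 0.19. Dlg2 encodes PSD-93, a paralog that shares many partners with PSD-95. It ran the other way across the libraries, at 9.58, 3.86 and 8.62 FPKM with AAV-shbrpf1, against 10.4, 4.87 and 7.41 FPKM with AAV-scramble. Its blocked difference was -0.06 ± 0.12 (SE) with an interval of -0.36 to 0.23. As a result the ratio of Dlg4 to Dlg2 was 1.70, 9.58 and 2.53 with AAV-shbrpf1, against 1.43, 7.86 and 3.38 with AAV-scramble. Dlg4 lies on chromosome 11 from 70016942 to 70047522 with no other gene over it, and Dlg2 on chromosome 7 from 90476672 to 92449247, a span of 1973 kb that holds many predicted genes, both on the plus strand.

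Shank1 measured 15.0, 35.0 and 20.3 FPKM in AAV-shbrpf1 libraries 1, 2 and 3, against 13.3, 34.5 and 19.99 FPKM in AAV-scramble libraries 1, 2 and 3. It was higher with AAV-shbrpf1 in 3 of 3 pairs, by ratios of 1.13, 1.01 and 1.02, and it was the only 1 of the 10 genes with that pattern, which 7.15% of all genes tested showed. The blocked difference was 0.07 ± 0.08 (SE) with an interval of -0.13 to 0.27. Shank3, whose human counterpart is mutated or deleted in Phelan-McDermid syndrome, stood at 9.55, 24.7 and 13.9 FPKM with AAV-shbrpf1, against 8.62, 15.5 and 14.8 FPKM with AAV-scramble. Pair 2 set it apart, with a ratio of 1.59, against 1.11 and 0.938 in pairs 1 and 3. Its means were 16.0 ± 7.79 FPKM with AAV-shbrpf1 and 12.97 ± 3.78 FPKM with AAV-scramble (SD, n = 3 each), and the blocked difference was 0.23 ± 0.15 (SE) with an interval of -0.15 to 0.60. Without pair 2 the blocked difference was 0.02. Shank2 was lower, at 4.63, 5.94 and 5.24 FPKM with AAV-shbrpf1 and 3.88, 5.22 and 6.27 FPKM with AAV-scramble. Its blocked difference was 0.05 ± 0.12 (SE) with an interval of -0.26 to 0.35.

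Shank1 and Shank2 both lie on the plus strand of chromosome 7, from 44310253 to 44360572 and from 144001928 to 144424494, and Shank3 on the plus strand of chromosome 15 from 89499623 to 89560261. Predicted, unnamed or microRNA genes overlap each of the 3. Together they summed to 29.2, 65.6 and 39.5 FPKM with AAV-shbrpf1, against 25.8, 55.2 and 41.1 FPKM with AAV-scramble (exact permutation p = 0.8, adjusted p = 1). Shank1 made up 51.5%, 53.4% and 51.5% of that sum with AAV-shbrpf1, against 51.5%, 62.5% and 48.7% with AAV-scramble. The share of Shank3 was 37.6% with AAV-shbrpf1 and 28.0% with AAV-scramble in pair 2, where the other AAV-shbrpf1 libraries had 32.7% and 35.2% and the other AAV-scramble libraries 33.5% and 36.1% (exact permutation p = 0.5, adjusted p = 1).

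Homer1 was the gene with the smallest p between the viruses, and it did not pass. It encodes long forms that crosslink the postsynaptic density and a short, activity-induced form, Homer1a, that competes with them, and a value per gene cannot part these forms. Its level was 3.997, 1.18 and 2.45 FPKM in AAV-shbrpf1 libraries 1, 2 and 3, against 4.26, 2.08 and 3.19 FPKM in AAV-scramble libraries 1, 2 and 3. It was lower with AAV-shbrpf1 in 3 of 3 pairs, the only 1 of the 10 genes to be so, a pattern that 11.3% of all genes tested showed. By pair the ratios were 0.939, 0.568 and 0.767, or log2(FPKM + 1) differences of -0.07, -0.50 and -0.28. Homer1 was in the fifth of genes with the lowest GC content, whose median differences in these pairs were -0.09, -0.25 and 0.15. The means were 2.54 ± 1.41 FPKM with AAV-shbrpf1 and 3.18 ± 1.09 FPKM with AAV-scramble (SD, n = 3 each), and the log2 difference was -0.28 ± 0.13 (SE) with the block, with an interval of -0.60 to 0.03 and an unadjusted limma p of 0.0679 (adjusted p = 1). Without the block, the main fit, the SE was 0.36, the interval -1.14 to 0.57 and the unadjusted limma p 0.46. The values rest on 89 to 441 implied fragments if the longest transcript was expressed. Counting error alone was then 10.6% in AAV-shbrpf1 library 2 and 6.3% in AAV-scramble library 2. In pair 1 the counting errors were 4.8% and 5.4%, and the values differed by less than their sum. With the trend on GC content and length removed together with the block, the difference was -0.18 (adjusted p = 0.999). Homer1 lies on the plus strand of chromosome 13 from 93299635 to 93405129, where 2 predicted genes overlap it.

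**Figure D3:**
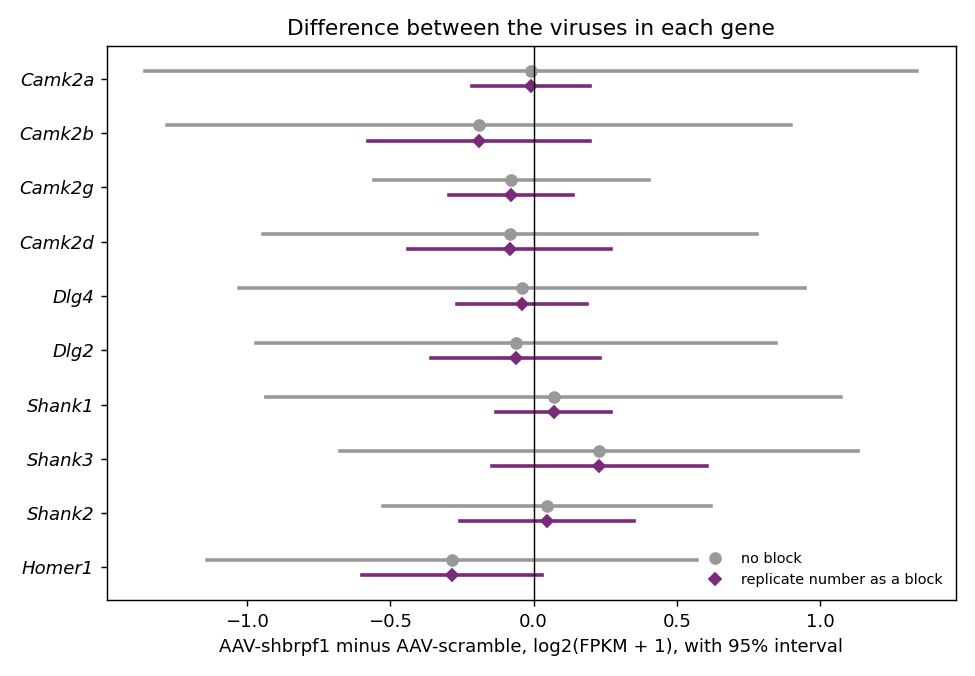
Difference between AAV-shbrpf1 and AAV-scramble in each gene on the log2(FPKM + 1) scale (x axis), with 95% intervals from limma without a block (grey circles) and with the replicate number as a block (purple diamonds). Each interval includes 0, the blocked ones being narrower, and Homer1 lies farthest below 0 at -0.28.

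Between replicate numbers, by contrast, the levels of most of these genes differed. In limma's F test between numbers, with the virus in the model, 8 of the 10 genes passed (adjusted p of 0.00227 to 0.0111), where 69.4% of all genes tested did, so the share is near the background. The exceptions were Camk2g (adjusted p = 0.478) and Shank2 (adjusted p = 0.124). Of the sum of squares, 99.7% in Camk2a, 99.1% in Shank1 and 98.3% in Dlg4 lay between numbers, beside 86.9% over all genes, and at most 21.8%, in Camk2g, between viruses. The direction split the genes. Camk2a, Camk2b, Dlg4, Shank1 and Shank3 were higher in the libraries numbered 2 than in those numbered 1, a direction in which 24.9% of all genes passed. Camk2d, Dlg2 and Homer1 were lower there, a direction in which 44.5% of all genes passed. Of these calls, Shank3 and Homer1 were lost without AAV-shbrpf1 library 1 (limma adjusted p = 0.0825 and 0.0592), and Camk2d and Shank3 without AAV-scramble library 1 (0.104 and 0.0643). Camk2d and Shank3 were also lost without the filter on low values (0.0531 and 0.0542). Shank2, by contrast, passed without AAV-shbrpf1 library 3 (0.0496) and under median-of-ratios scaling (0.0272).

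The order of the numbers was the same within each of these sets. In the 5 genes of the first set both libraries numbered 2 lay above both numbered 3, and these above both numbered 1, an order that 12.3% of all genes showed without overlap. The 3 genes of the second set had the reverse order, as did 25.7% of all genes. The libraries numbered 2 averaged 35.3 FPKM of Camk2a and those numbered 1 averaged 9.73 FPKM, a ratio of 3.63 and a log2 difference of 1.76 ± 0.10 (SE, n = 2 each). For Camk2b the means were 58.4 and 22.7 FPKM, for Dlg4 37.6 and 15.6, for Shank1 34.8 and 14.1, and for Shank3 20.1 and 9.08. Their log2 differences were 1.32 ± 0.19, 1.22 ± 0.11, 1.24 ± 0.10 and 1.03 ± 0.18 (SE). In the opposite direction, numbers 2 and 1 averaged 1.52 and 3.97 FPKM of Camk2d, 4.37 and 10.003 FPKM of Dlg2, and 1.63 and 4.13 FPKM of Homer1. These are log2 differences of -0.97 ± 0.17, -1.04 ± 0.14 and -0.98 ± 0.15 (SE). What a number marks is not stated in the labels.

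Transcript composition moved with this split. The 3 genes that were lower in the libraries numbered 2 had the lowest GC content, with a median over their protein-coding transcripts of 43.5% in Homer1, 44.3% in Dlg2 and 46.1% in Camk2d. The other 7 lay between 53.2% in Camk2g and 63.7% in Shank1. Over all genes tested, the median log2 difference of number 2 minus number 1 went with the GC content of the longest transcript, being -1.19 in the fifth of lowest GC and 0.57 in the fifth of highest GC. After a smooth trend on GC content and transcript length was removed from each library, 3 of the 10 genes passed, where 43.1% of all genes did. These were Camk2a at a log2 difference of 1.47 (adjusted p = 0.00639), Camk2b at 0.83 (adjusted p = 0.0382) and Dlg4 at 1.79 (adjusted p = 0.0068).

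The longest Dlg4 transcript is 46.8% GC, far from the median of 56.1% over the transcripts of that gene, so the trend was also removed on medians over transcripts, an alternative chosen after seeing the data. The same 3 genes passed, Camk2a at 1.58, Camk2b at 1.01 and Dlg4 at 0.96, where 43.3% of all genes did. In that form the differences of the 5 genes no longer called were 0.05 in Shank1, 0.06 in Shank3, 0.08 in Homer1, -0.08 in Dlg2 and -0.21 in Camk2d. Camk2g stood at -0.15, beside -0.14 before, and Shank2 at -0.23, beside 0.33 before, neither of them past the threshold in either form. Shares and marker levels of the libraries moved with the number as well. The mitochondrial share was 6.09% and 5.6% in the libraries numbered 1, 1.34% and 1.8% in those numbered 2 and 3.71% and 4.03% in those numbered 3, and the ribosomal share is given above. Genes above 0 numbered 18780 and 22621 in the libraries numbered 2, the lowest of the 6. Of the marker genes tested, the shares that passed between numbers are to be read against 69.4% of all genes, with 24.9% higher and 44.5% lower in number 2 than in number 1. The summed progenitor markers were 892 to 939 FPKM in the libraries numbered 1, 286 to 317 in those numbered 2 and 804 to 806 in those numbered 3. Of 7 tested 5 passed, 1 higher and 4 lower in number 2 than in number 1, and Fabp7 made up most of the sum. The summed GABAergic markers were 660 to 695, 930 to 1054 and 881 to 1122 FPKM, and 10 of 10 passed, 5 higher and 5 lower in number 2 than in number 1. Sst, at 423 and 468 FPKM in number 2 and 232 and 178 FPKM in number 1, made up most of the difference in the sum, while the GABA synthesis genes Gad1 and Gad2 were lower in number 2 by log2 differences of -0.73 and -1.22. In the same order of numbers, astrocyte markers summed to 218 to 222, 205 to 206 and 332 to 364 FPKM. Of 8 tested 7 passed, 2 higher and 5 lower in number 2, among them Aldh1l1 at a log2 difference of 1.22 and Gfap at -1.71. Oligodendrocyte lineage markers summed to 121 to 140, 214 to 228 and 274 to 289 FPKM, and 7 of 7 passed, 5 higher and 2 lower in number 2. These marker genes were chosen as examples after their values were seen. Endothelial and mural markers summed to 25.4 to 27.3 FPKM in the libraries numbered 1 and to 1.63 to 2.71 FPKM in the others, and of 3 tested Tagln and Acta2 passed, both lower in number 2. These genes made up most of the sum in number 1, with 12.5 and 13.5 FPKM of Tagln and 11.6 and 11.5 FPKM of Acta2. Pdgfrb did not pass, and Pecam1, Cldn5 and Kdr stayed at or below 0.452 FPKM in every library. The part of these shares and marker levels in the levels of the CaMKII and scaffold genes was not tested.

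**Figure D4:**
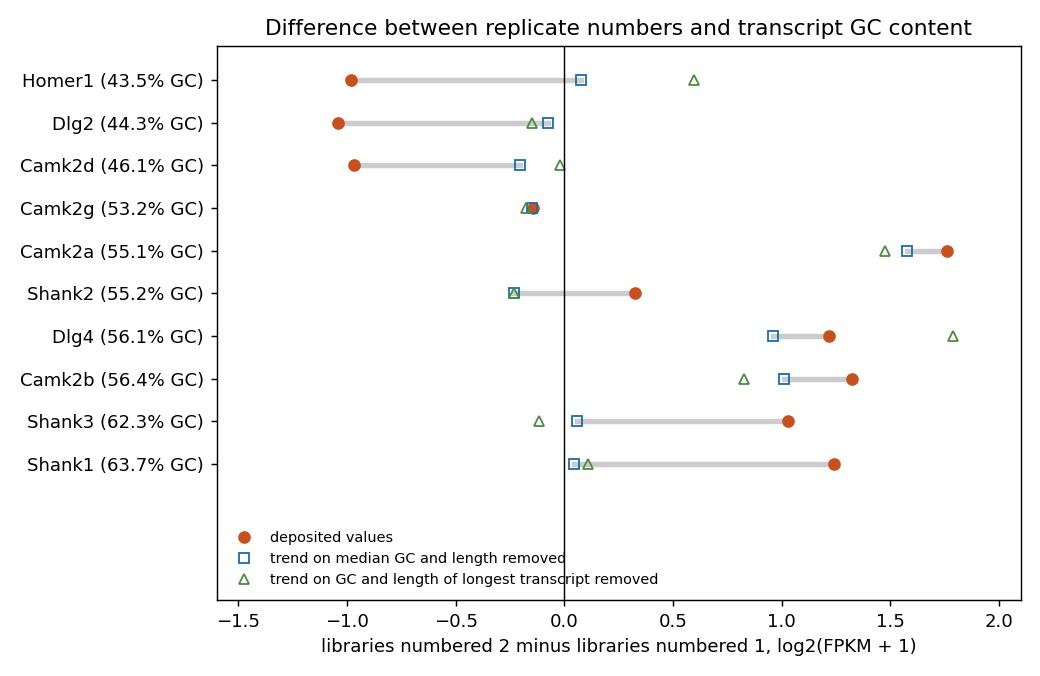
Log2(FPKM + 1) difference of the libraries numbered 2 minus those numbered 1 (x axis) for the 10 genes, listed from low to high median GC content of their transcripts, before (filled circles) and after removal of a trend on GC content and length (open symbols). Shank1 and Shank3 move from above 1 to near 0, and Camk2a, Camk2b and Dlg4 stay at 0.83 or more.

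Other genes of the pathway were measured in 3 lists. Of 19 partners of CaMKII and related kinases, all of which passed the filter on low values, 0 were higher and 0 lower with AAV-shbrpf1 (median log2 difference -0.06). The calmodulin genes Calm3 and Calm2, whose products switch CaMKII on, led that list with means of 358 ± 65.2 FPKM of Calm3 and 279 ± 128 FPKM of Calm2 with AAV-shbrpf1, against 369 ± 42.6 and 264 ± 110 FPKM with AAV-scramble (SD, n = 3 each). Of 25 other postsynaptic scaffold and signalling genes 23 passed the filter, and of these 0 passed the test in either direction (median -0.02). Dbn1, which encodes the spine actin-binding protein drebrin, stood at 64.5 ± 19.1 FPKM with AAV-shbrpf1 and 66.95 ± 13.96 FPKM with AAV-scramble. Cttn, encoding cortactin, stood at 42.6 ± 4.79 FPKM with AAV-shbrpf1 and 41.8 ± 4.33 FPKM with AAV-scramble. Of 12 glutamate receptor genes 11 passed the filter, and of these 0 passed the test (median -0.01). The AMPA receptor gene Gria1 stood at 138 ± 17.7 FPKM with AAV-shbrpf1 and 136 ± 10.4 FPKM with AAV-scramble. The obligatory NMDA receptor gene Grin1 stood at 26.95 ± 14.4 FPKM with AAV-shbrpf1 and 27.4 ± 15.6 FPKM with AAV-scramble.

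Between the replicate numbers, 17 of the 19 CaMKII partners passed, 6 of them higher and 11 lower in the libraries numbered 2 than in those numbered 1. In the scaffold list 18 of 23 passed, 11 higher and 7 lower, and in the receptor list 10 of 11, 2 higher and 8 lower. Over all genes tested 69.4% passed, 24.9% higher and 44.5% lower, and nothing is read from these counts beyond that. Grin1, 1 of the 2 receptor genes that were higher, stood at 43.5 and 45.3 FPKM in number 2 libraries and 16.2 to 20.8 FPKM in the other 4. Calm2 ran opposite, with 144 and 148 FPKM in number 2 libraries and 276 to 398 FPKM in the others. Of the other genes named from these lists, Dbn1 passed as higher in number 2 (log2 difference 0.69). Gria1, Calm3 and Cttn did not pass (limma F test adjusted p = 0.105, 0.0662 and 0.0641).

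For the most abundant gene of each family the protein-coding genes of most similar profile were looked up by the root mean square difference of mean-centred log2(FPKM + 1) over the 6 libraries. Nearest to Camk2b were Cnih2, an AMPA receptor auxiliary protein, at 0.115 and Nr1d1, a nuclear receptor of the circadian clock, at 0.117. Nearest to Dlg4 were Pcdhga11, a clustered protocadherin whose locus shares exons with its neighbours, at 0.0373 and Grina, a membrane protein of the TMBIM family, at 0.0396. Nearest to Shank1 were the lipid transporter gene Abca3 at 0.0415 and Kndc1 at 0.0445, and nearest to Homer1 were Gm10184 at 0.0579 and Nmnat1, a nuclear NAD synthesis enzyme, at 0.0698. Cnih2 stood at 53.3, 146 and 90.5 FPKM in AAV-shbrpf1 libraries 1, 2 and 3, against 54.5, 152 and 115 FPKM in AAV-scramble libraries 1, 2 and 3. Genes on the opposite strand overlap Cnih2 (Yif1a), Nr1d1 (Thra), Nmnat1 (Tmem274), Abca3 (D330041H03Rik and Gm25618) and Pcdhga11 (BC037039 among others), so their reads may have been mixed if strand was not used.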

How the data were processed

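RNA of 6 libraries was sequenced as paired ends, 3 with AAV-shbrpf1 and 3 with AAV-scramble, matched to columns by group and number. The authors deposited 1 table of gene values without a named unit, read here as FPKM: the values are not whole and have no fixed sum. The authors name FastQC, StringTie and DESeq2 without roles or versions, and the build mm9, per the submitters' processing notes. Since 54899 of the 55154 identifiers that GENCODE M21 holds have its GRCm38 positions in the table, GRCm38 coordinates are printed. Aligner and strand use: not given in the sources used here.

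Log2(FPKM + 1) was fitted for the 12792 genes that averaged 1 FPKM or more in either group (limma 3.58.1 with a trend, R 4.3.3; two-sided p-values, Benjamini-Hochberg over all genes), for the virus without covariates and for the replicate number with the virus in the model. The added 1 shrinks differences of genes with low values. Samples with the same number were taken as pairs. Their deviations from the group means correlated at 0.87, 0.83 and 0.57 across genes, and at most at 0.002 otherwise, as judged before fits were compared. Centring on group means lowers the other correlations when those of the pairs are high, so the contrast is partly built in. No label states the pairing, which rests on these same values. Blocked intervals are printed on that basis and hold only if the pairing does. Family sums and shares were tested by exact permutation. Depth came from 11673 single-exon, single-transcript genes over 400 nt, where the commonest product of FPKM and kilobases was taken as 1 fragment. Implied fragments of a gene are its FPKM times the kilobases of its longest transcript times depth. Where shorter transcripts were expressed, they are too high and the counting errors too low. For Homer1 the longest transcript has 5713 nt, against a median of 2468 nt. Counting errors cover counting only. The GC trend was a loess fit with a span of 0.3, and 12785 genes had GC content and length. Alternatives were a pseudocount of 0.1, no filter, median-of-ratios scaling, GC and length correction, the block, and leaving out libraries. The genes, the lists (3 of the pathway and 8 of cell type markers) and the rule for named genes (the 10 genes, the 2 most abundant of each pathway list where none passed, the 2 most similar genes per family, and Brpf1) were chosen with earlier results of these data known.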

Additional observations from a re-analysis of the deposited data

How the results depend on the processing

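Between the viruses 0 genes passed under a pseudocount of 0.1, without the filter, under median-of-ratios scaling, with either GC correction, and with the replicate block with or without GC correction. Leaving out libraries or pairs gave 0 to 3 such genes, none of them a CaMKII or scaffold gene, the 3 under the block without pair 2. The log2 differences of the genes lie near 0, and 9 of them changed sign when a library or pair was left out: their ranges were Camk2a -0.52 to 0.45, Camk2b -0.59 to 0.10, Camk2d -0.31 to 0.25, Dlg2 -0.31 to 0.29, Dlg4 -0.38 to 0.27, Shank1 -0.25 to 0.42, Shank2 -0.11 to 0.18, Shank3 -0.12 to 0.53 and Homer1 -0.57 to 0.025. Under the block, the sign turned without pair 1 in Camk2d (0.061) and Shank2 (-0.031), without pair 2 in Camk2a (0.00018), Dlg2 (0.042) and Shank2 (-0.0082), and without pair 3 in Camk2a (0.038), Camk2b (0.0396) and Dlg4 (0.033). Camk2g kept its sign. Under GC correction with and without the block Camk2a stood at 0.0014. With the replicate block no call changed.

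Between replicate numbers 8876 genes passed, against 5515 and 5536 with GC and length correction on the longest transcript and on medians, and 4786 to 8655 with a library left out. The lowest counts were 5342 without AAV-shbrpf1 library 1 and 4786 without AAV-scramble library 1. Calls that single genes lost or gained are given in the report. Median-of-ratios scaling moved the median of all genes for number 2 minus number 1 to 0.07, against -0.25 as deposited, and under it Camk2g turned to 0.24 and Shank2 passed at 0.67, while the other 8 kept direction and call. With GC correction on the longest transcript Shank2 turned to -0.23, Shank3 to -0.12 and Homer1 to 0.60, and on medians Shank2 to -0.23 and Homer1 to 0.077, none of them past the threshold. Family sums and shares were recomputed only under the block and without each library, and the sums also under median-of-ratios scaling. Their differences between the viruses moved by less than the larger group SD under these settings. That of the Shank1 share moved by more than its SD of 1.08 with AAV-shbrpf1. With a library left out, the difference of the CaMKII sum ranged from -22.8 to 6.29 FPKM. That of the Shank sum ranged from -6.37 to 11.8 FPKM. Those of the CaMKII shares ranged, in percentage points, from -1.53 to 6.14 for Camk2a and -5.64 to 0.03 for Camk2b. They ranged from -1.90 to 2.03 for Camk2d and -3.20 to 5.14 for Camk2g. Shank shares ran from -4.90 to 2.04 for Shank1, -2.44 to 1.30 for Shank2 and 0.41 to 4.43 for Shank3. Each difference changed sign with some library left out, except that of the Shank3 share. Depth limits Homer1 and Camk2d most, as they had the fewest implied fragments.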
